A study of Mus musculus with 12 samples.

Results

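The kinesin genes of the mouse genome were followed across 4 kinds of muscle sample. Members were the genes with a non-control array probe whose name in the scanner files begins with Kif and a digit. The rule found 33 genes with 71 probes, of 27596 gene names and 41174 probes on the array. By their known work, 9 were mitotic kinesins, 13 carried cargo and 11 did neither or are less well placed. The 11 include Kif2a and Kif2b, close relatives of the mitotic Kif2c, and the mitotic counts would differ with them counted in. The rule uses no measured value, but a gene with several probes is represented by its probe with the highest mean signal. Values and counts of arrays well above background are those of that probe unless another is named.

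RNA was hybridised to 12 one-colour arrays, 3 per group. Soleus, a slow oxidative hind limb muscle, and extensor digitorum longus (EDL), a fast glycolytic one, were dissected from male CD1 mice aged 3 months, and each muscle sample pooled both legs of 1 animal. C2C12 myotubes are fused cells of a mouse muscle line harvested 96 hours into differentiation, collected as the floating cells, mostly myotubes, after trypsin and a short replating that lets single-nucleus cells attach. C2C12 myoblasts are the dividing precursors of that line, taken at about 50% confluence. The labels name no genetic change or drug in any group. The C2C12 cells are 1 line, and the labels do not say that the cultures of a group were grown apart, so p-values reflect only how far these particular samples spread, which may be technical.

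Each slide held 1 array of every group, and replicate numbers are slides. Place on a slide followed the group, and the effects of place and group cannot be told apart. On single arrays 58% to 73.2% of probes were well above background. Values are log2 signals scaled so that every array has the same 75th percentile, and a level can be compared between groups for 1 probe but not between probes. As labelled, all 3 slow fibre markers were higher in soleus than in EDL and 2 of 3 fast fibre markers were lower. All 4 markers of differentiated muscle cells were higher in myotubes than in myoblasts. The 3 myoblast markers were mixed: in myotubes Myf5 was lower (-1.95), Myod1 was not called (-0.30) and Des was higher (2.48).

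Kinesins are motor proteins that walk along microtubules using the energy of ATP. One set builds the spindle, moves chromosomes and closes the midzone of dividing cells, and its genes are switched on late in the cell cycle. Another set hauls organelles, vesicles, RNA and ciliary parts through cells that need not divide. Skeletal muscle fibres are fused cells that have left the cell cycle, with nuclei and mitochondria placed along a microtubule lattice.

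Promoter sequence was examined because the mitotic members moved together. RefSeq promoter windows (GRCm38.p6), which run from 250 bases before to 50 bases after a gene's start, were matched by symbol for 28 of the 33 members. They were searched on both strands for TTTGAA, the cell cycle genes homology region (CHR) found in many late cell cycle promoters, and for CCAAT, the CCAAT box. The CHR letters stood in 7 of 8 windows of mitotic kinesins (87.5%), in 1 of 12 windows of cargo kinesins (8.33%) and in 2 of 12 windows of other kinesins (16.7%), while 17.9% of all 32841 windows held them. The windows of Kif2a and Kif2b, counted with the other kinesins, held no CHR letters. The CCAAT letters stood in 5 of 8 mitotic windows (62.5%), 4 of 12 cargo windows (33.3%) and 37.4% of all windows. Among the members, 0 matches of one motif shared a base with a match of the other. A match is only a run of letters.

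The 100 bases before the start are shown for the 3 mitotic kinesins with a CHR match inside them, and for the cargo kinesins Kif3a, Kif1c and Kif5c, which among the tested cargo kinesins differed most between muscle and myotubes. Capitals mark CHR (TTTGAA, or TTCAAA when read on the other strand) and CCAAT (or ATTGG) letters. The Kif11 stretch is chr19:37376282-37376381, plus strand. Kif15 is chr9:122950981-122951080, plus strand, and Kif22 is chr7:127042421-127042520, minus strand. Kif3a is chr11:53567269-53567368, Kif1c is chr11:70700448-70700547 and Kif5c is chr2:49619186-49619285, all on the plus strand.
Kif11: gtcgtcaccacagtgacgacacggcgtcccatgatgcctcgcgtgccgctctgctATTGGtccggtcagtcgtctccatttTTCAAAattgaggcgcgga
Kif15: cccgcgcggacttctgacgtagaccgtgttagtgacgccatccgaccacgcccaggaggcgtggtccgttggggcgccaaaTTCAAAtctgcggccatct
Kif22: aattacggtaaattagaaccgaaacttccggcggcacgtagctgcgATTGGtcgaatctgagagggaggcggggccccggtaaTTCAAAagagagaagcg
Kif3a: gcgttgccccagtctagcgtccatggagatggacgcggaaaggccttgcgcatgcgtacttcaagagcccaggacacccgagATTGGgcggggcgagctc
Kif1c: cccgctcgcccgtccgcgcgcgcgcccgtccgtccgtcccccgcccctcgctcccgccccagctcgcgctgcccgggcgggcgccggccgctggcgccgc
Kif5c: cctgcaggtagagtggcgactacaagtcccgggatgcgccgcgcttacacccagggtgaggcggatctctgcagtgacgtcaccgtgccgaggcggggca
The CHR match began 19 bases before the start in Kif11 and Kif15 and 17 bases before it in Kif22. Kif11 and Kif22 also held a CCAAT match on the other strand, beginning 45 and 54 bases before the start. The Kif3a stretch held 1 CCAAT match on the other strand, and the Kif1c and Kif5c stretches held neither motif.

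Myotubes were compared with myoblasts to ask what differentiation in culture does to the family. All 9 mitotic kinesins fell and no mitotic kinesin rose, by log2 differences of -4.85 to -6.62 with a median of -5.99, or -5.55 with Kif15, which is below background in myotubes, at its bound. Kif2a, counted with the other kinesins, was not called on its brightest probe (-0.78), and Kif2b was not tested. Of the 13 cargo kinesins, 6 rose, 1 fell, 5 did not pass the test and 1 was not tested. Over all genes tested 18.9% were called higher and 16.5% lower, with a median difference of 0.04. Calls needed both an adjusted p under 0.05 in limma and a log2 difference of 1 or more in either direction.

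Kif11 is the motor that pushes spindle poles apart. Its log2 signal was 4.21, 4.35 and 4.22 in myotubes and 9.57, 9.54 and 9.91 in myoblasts. The groups lay far apart, and the difference was -5.42 ± 0.34 (SE; limma adjusted p = 2.21e-07). Kif15, which can hold spindle poles apart beside Kif11, stood well above background on no myotube array and was at least 46.8-fold lower than in myoblasts (adjusted p = 3.86e-08). Such a bound sets the mean of the brighter group against, on each array of the dimmer, the higher of the probe's own signal and the dimmest signal still well above background.

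Kif20a and Kif23 act at the central spindle and in cytokinesis. Kif20a was at 9.80, 10.19 and 10.11 in myotubes, against 15.26, 15.47 and 15.44 in myoblasts, a 40.9-fold fall (log2 difference -5.35 ± 0.20, adjusted p = 4.66e-09). Kif23, a subunit of centralspindlin, fell by 6.23 on the log2 scale, and Kif14, a late cytokinesis kinesin, fell by 6.26. Myotube and myoblast arrays did not overlap for any of these genes, as was so for 68.7% of all genes tested.

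The chromosome-bound and kinetochore kinesins also fell. Kif4 and Kif22, which bind chromosome arms, fell by 5.99 and 5.17. Kif18a, which damps chromosome movement at the plate, was at 5.48, 5.57 and 5.56 in myotubes and 10.21, 10.37 and 10.60 in myoblasts, the least change of the 9 (-4.85 ± 0.17, adjusted p = 2.89e-09). Kif2c, which strips microtubule ends, differed by -6.62 ± 0.36 (adjusted p = 8.15e-08), but only 1 of 3 myotube arrays was well above background for it, so the size is not well measured.

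**Figure D1:**
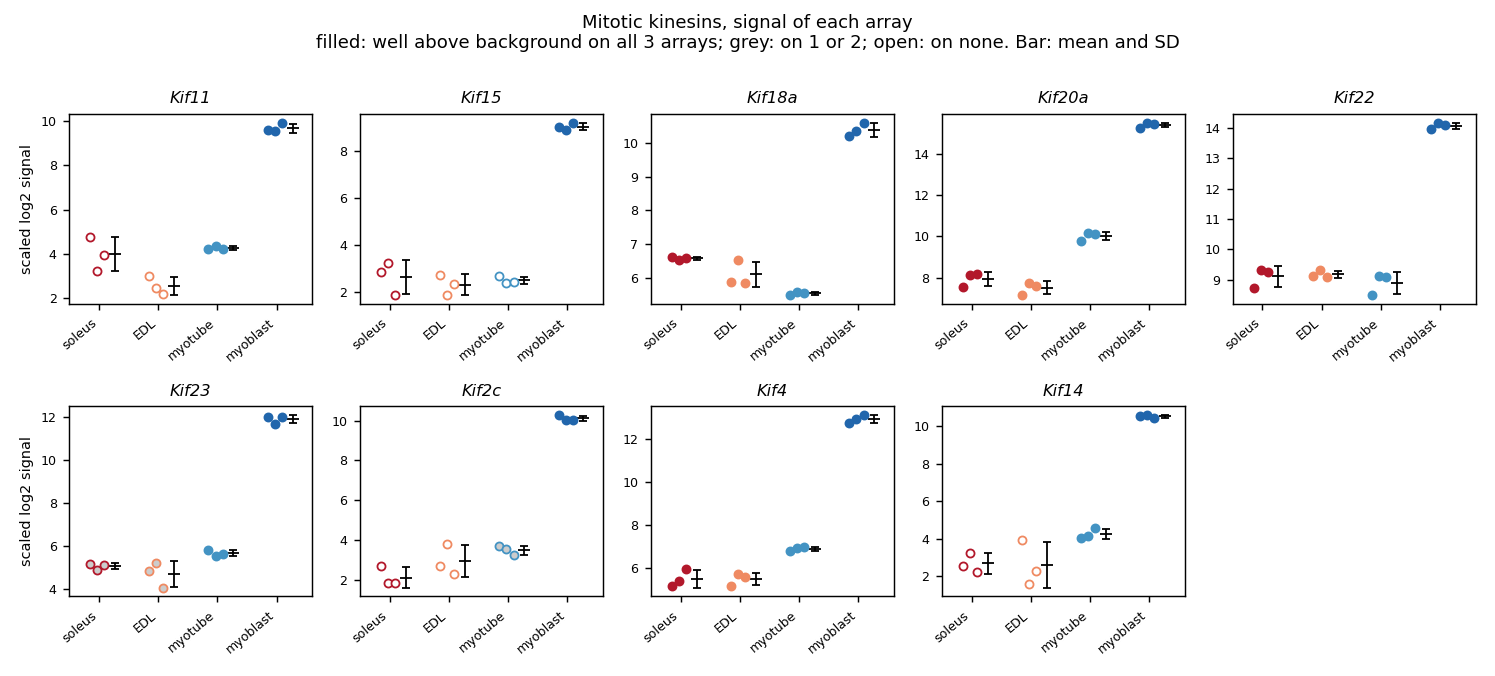
Scaled log2 signal of the 9 mitotic kinesins on each of the 12 arrays, 3 arrays per group, with a panel per gene and its own y axis; the bar is the group mean with its SD. Coloured points mark groups with 3 arrays well above background, grey points 1 or 2 such arrays, and open points none. In every panel the 3 myoblast arrays stand above all other arrays.

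Genes that work with these motors moved the same way. Of 14 listed partners in the spindle midzone, kinetochore and spindle checkpoint, 14 were lower in myotubes, beside 16.5% of all genes. Their median difference was -5.31. Ska1, a kinetochore protein, differed most (-6.35), and Racgap1, the partner of Kif23 in centralspindlin, least (-3.89). Kif18b and Kif20b, mitotic kinesins that the files list under older names and the name rule therefore missed, were lower by 6.61 and 5.28 in myotubes. All 5 markers of dividing cells (Mki67, Top2a, Ccnb1, Ccna2 and Pcna) were lower as well, and their summed linear signal was 9560 to 10200 in myotubes and 90700 to 101000 in myoblasts. In bulk RNA, fewer cycling cells and less RNA per cell cannot be told apart.

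Cargo kinesins that rose in myotubes did so by 1.23 to 2.30 on the log2 scale. The conventional kinesin heavy chains, which pull mitochondria and, in mouse myotubes, help to spread nuclei, split. Kif5b was at 15.92, 16.26 and 16.27 in myotubes and at 14.50, 15.14 and 15.05 in myoblasts (1.25 ± 0.22, adjusted p = 0.000551). Kif5a was at 8.46, 8.59 and 8.69 in myotubes and at 6.27, 6.36 and 6.21 in myoblasts, a 4.94-fold rise (2.30 ± 0.12, adjusted p = 3.98e-08). Kif5c went the other way, with 9.57, 9.68 and 9.74 in myotubes and 10.67, 10.80 and 10.81 in myoblasts (-1.10 ± 0.09, adjusted p = 1.96e-06). Kif5a and Kif5c are best known from neurons, and the arrays of the groups did not overlap for any of the 3 genes (68.7% of all genes tested did not overlap).

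Kif3a, the shared subunit of the heterotrimeric kinesin that builds cilia, was higher in myotubes (11.73, 11.70 and 11.71) than in myoblasts, where the arrays lay between 10.43 and 10.51, by 1.23 ± 0.07 (adjusted p = 1.25e-07). Its partners were not called, with differences of -0.02 for Kif3b and 0.71 for Kif3c. Among the vesicle carriers, Kif1b rose by 1.33, Kif13a by 1.31 and Kif13b by 1.39. Kif1a, Kif1c and Kif16b, carriers of synaptic vesicle precursors, secretory vesicles and early endosomes, were not called at 0.21, 0.19 and 0.30. Kif13b rests on 1 of its probes: the second tested probe gave -0.17 (adjusted p = 0.652). The Kif13a call was lost without myotube replicate 1 (0.99) or replicate 3 of all groups (1.31).

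Of 17 measured cargo partners, 5 rose (29.4%) and 0 fell, beside 18.9% of all genes higher and 16.5% lower, and their median difference was 0.74. Those that rose were the light chains Klc1 (2.12), Klc4 (1.90) and Klc3 (1.08), the lysosome adaptor Plekhm2 (1.38) and the microtubule-associated Map7d1 (1.05). The smallest difference was that of Arl8b, a lysosomal small GTPase, at 0.00. Among 14 other motor genes, 3 rose and 3 fell, 21.4% each way. Cenpe, a kinetochore kinesin, fell by 5.80, and the spindle motor Kifc1 changed by -3.76. By contrast Kifc2 rose by 3.07, Kifc3 by 2.06 and the dynein light intermediate chain Dync1li2 by 2.03. The dynein intermediate chain Dync1i1 fell by 1.28, and the light chain Dynll2 differed least (-0.02).

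Of the 11 other kinesins, 2 rose in myotubes and 0 fell. Kif21b, a regulator of microtubule growth, was at 10.82, 10.92 and 10.81 in myotubes and at 9.33, 9.35 and 9.22 in myoblasts (1.55 ± 0.08, adjusted p = 4.34e-08). The brighter probe of Kif26a, an atypical member without motor ATPase activity, stood well above background on no myoblast array and was at least 21.2-fold higher in myotubes (adjusted p = 4.36e-09). A second Kif26a probe did not show this: it was well above background on all 3 myoblast arrays and differed by 0.10 (adjusted p = 0.852).

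Scaling by the spike-in controls shifted every myotube minus myoblast difference by -0.35, which left the 9 mitotic calls and gave 3 higher and 11 lower kinesins in place of 8 and 10, with 12.5% of all genes higher and 21.3% lower. Normexp background correction gave 4 higher and 9 lower, with the mitotic differences at -3.15 to -5.08. The cargo calls of Kif13a (0.96), Kif13b (1.04), Kif1b (0.98), Kif3a (0.88) and Kif5b (0.90) were lost under the spike-in scaling, and with normexp Kif13b turned to -0.49 while Kif13a (0.31), Kif5a (0.75), Kif5c (-0.85) and Kif26a (0.51) were no longer called.

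Whole muscle was then set against myotubes, the comparison of fibres grown in the animal with those made in culture. In soleus 6 kinesins were higher and 9 lower, where 25.8% of all genes tested were higher and 19.5% lower. In EDL 5 were higher and 14 lower, where 27.9% of all genes were higher and 19.8% lower. Both comparisons share the myotube arrays. Median differences over the 30 members tested were -0.46 in soleus and -0.89 in EDL, while over all genes they were 0.14 in soleus and 0.21 in EDL.

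The cargo kinesins divided into those with more and those with less signal in muscle. Kif1c was at 14.00, 13.96 and 14.10 in soleus, at 14.35, 14.44 and 14.33 in EDL and at 11.60, 11.61 and 11.69 in myotubes. Every muscle array stood above every myotube array, and 74.1% of all genes in soleus and 76.1% in EDL likewise did not overlap with myotubes. Kif1c rose by 2.38 ± 0.11 in soleus (adjusted p = 1.37e-08) and 2.74 ± 0.11 in EDL (adjusted p = 4.6e-09). Its other 3 probes gave 1.18 to 2.16 in soleus and 1.15 to 2.52 in EDL, and the probe with the widest spread was not called. Kif16b was at 11.21, 11.11 and 11.11 in soleus, at 10.74, 10.69 and 10.65 in EDL and at 9.24, 9.09 and 9.06 in myotubes. It rose by 2.01 in soleus and 1.56 in EDL, with no overlap, and a second probe gave 2.07 and 1.37.

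Kif13a rose in soleus (1.51 ± 0.34, adjusted p = 0.00247), a call lost without replicate 3 of all groups (1.41), and stayed under the minimum difference in EDL (0.96, adjusted p = 0.0273). On its brightest probe Kif1b was not called in soleus (0.78) and rose in EDL (1.05 ± 0.10, adjusted p = 4.58e-06). That call in EDL was lost without EDL replicate 3 (0.99) or replicate 3 of all groups (0.96). The other Kif1b probes gave 1.17 to 2.56 in soleus and 1.33 to 1.93 in EDL. Neither gene was called between the muscles on its brightest probe, where the differences were 0.55 and -0.27.

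The kinesins with less signal in muscle included the neuronal heavy chain and the ciliary motor. Kif5c was at 6.79, 6.56 and 6.80 in soleus, at 6.44, 6.58 and 6.50 in EDL and at 9.57, 9.68 and 9.74 in myotubes. It fell by 2.95 in soleus (adjusted p = 7.88e-10) and by 3.16 in EDL (adjusted p = 4.56e-10). A second Kif5c probe was well above background on no muscle array and on 2 of 3 myotube arrays, and gives no second measure. Kif3a was at 8.80, 8.84 and 8.99 in soleus, at 9.06, 9.02 and 9.02 in EDL and at 11.73, 11.70 and 11.71 in myotubes. It fell by 2.84 and 2.68, and its second probe differed by -3.79 and -3.35.

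A further 4 cargo kinesins were lower in EDL and not called in soleus on these probes. They were Kif1a (-0.73 in soleus and -1.77 in EDL), Kif5b (-0.91 and -1.50), Kif3b (-0.88 and -1.25) and Kif13b (-0.82 and -1.09), and of these only Kif1a was called between the muscles. The Kif13b call in EDL was lost without myotube replicate 3 (-0.95) or replicate 3 of all groups (-0.89). A second Kif3b probe, well above background on 2 of 3 myotube arrays, differed by -1.95 in soleus and -2.15 in EDL, so it passed the thresholds in both. Second probes of Kif1a and Kif13b were well above background on no muscle array and give bounds only: at least 1.16-fold lower in soleus and 1.02-fold in EDL for Kif1a (adjusted p = 0.00763 and 0.00876), and at least 2.05-fold and 1.68-fold for Kif13b (adjusted p = 4.65e-05 and 4.71e-05). Kif5a was not called in either muscle (-0.34 in soleus and -0.82 in EDL), nor was Kif3c (0.01 and 0.10). Kif17, a dendritic and ciliary motor, was well above background on 2 EDL arrays and 1 myoblast array with one probe and on 1 soleus array with another, and was not tested.

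**Figure D2:**
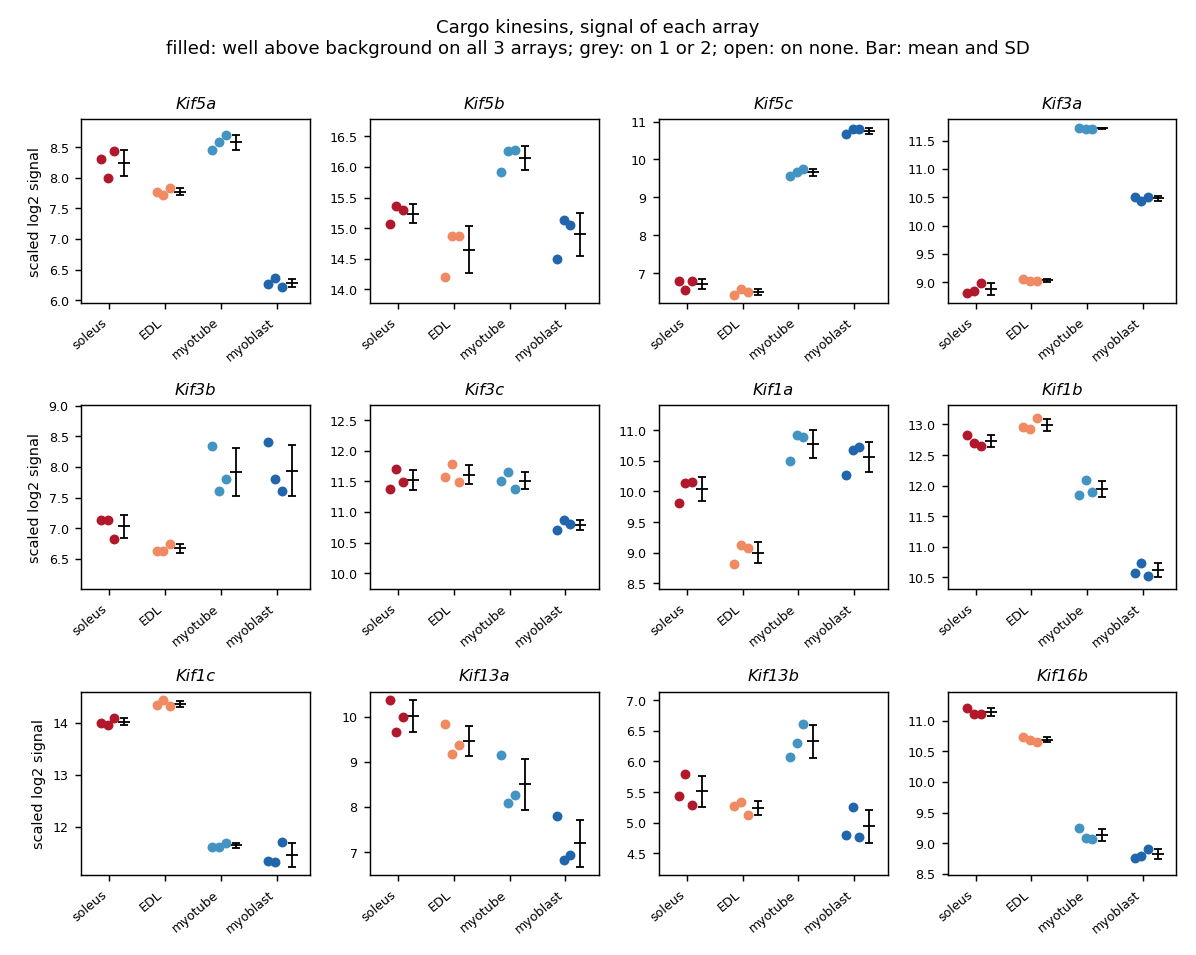
Scaled log2 signal of the 12 tested cargo kinesins on each of the 12 arrays, 3 arrays per group, a panel per gene with its own y axis; bars are group means with SD. Kif1c and Kif16b are highest in both muscles, while Kif5c and Kif3a are lowest there; Kif5a is lowest in myoblasts.

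Mitotic kinesins, already low in myotubes, split further in muscle. Kif20a was at 7.55, 8.11 and 8.19 in soleus, at 7.15, 7.75 and 7.61 in EDL and at 9.80, 10.19 and 10.11 in myotubes, and fell by 2.08 and 2.53 (adjusted p = 5e-06 and 1.03e-06). Kif4 fell by 1.39 in both. Kif22 differed by 0.22 in soleus and 0.28 in EDL and was not called. Kif18a was at 6.61, 6.52 and 6.60 in soleus and at 5.48, 5.57 and 5.56 in myotubes, a rise of 1.04 ± 0.17 (adjusted p = 0.000293). That call was lost without replicate 1 of all groups (0.99), after quantile normalization (0.57) and in the authors' deposited values (0.57). In EDL the difference of 0.56 was not called.

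The remaining 5 sat at or near background. Kif14, Kif15 and Kif2c were well above background on no muscle array. Kif11 was so on none with its brightest probe and on 1 soleus and 1 EDL array with another, and Kif23 was so on 2 soleus arrays and 1 EDL array. Calls were made for Kif14 in both muscles, for Kif11 in EDL and for Kif2c in soleus, all lower. The muscle values there were not well above background. With bounds, only Kif14 in soleus was still lower (at least 1.1-fold), and the other calls have no bounded fall. The Kif14 call was lost without replicate 3 of all groups (-1.17 in soleus and -1.33 in EDL), in EDL without replicate 2 of all groups (-1.21), and in soleus without soleus replicate 3 (-1.34) or myotube replicate 3 (-1.41). The other probes of Kif11 and Kif14 were well above background on no myotube array. Among them, the Kif11 probe with 1 array of each muscle well above background differed the other way, by 1.07 in soleus and 1.19 in EDL. The rest give no second measure. All 5 markers of dividing cells were lower in both muscles than in myotubes, with summed signals of 4100 to 4890 in soleus, 3880 to 4080 in EDL and 9560 to 10200 in myotubes, and 2 of the 5 were well above background on no muscle array; their part in the results was not tested. Of the 14 mitotic partners, 11 were lower in soleus (78.6%) and 10 in EDL (71.4%), beside 19.5% and 19.8% of all genes. In EDL Ect2, which starts the cleavage furrow, differed most (-4.71), with only 1 EDL array well above background, and citron kinase, Cit, least (-0.35). The kinase Aurka, named after its values were seen, was the 1 partner higher in EDL than in myotubes (3.14).

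Of the other kinesins, Kif21b fell furthest on its brightest probe. It was at 6.78, 6.88 and 6.68 in soleus, at 7.16, 7.24 and 7.16 in EDL and at 10.82, 10.92 and 10.81 in myotubes, 4.07 and 3.66 lower (adjusted p = 3.97e-11 and 6.14e-11). A second Kif21b probe, well above background on 1 soleus and 2 EDL arrays, differed by -2.52 and -1.32. The related Kif21a ran the other way, with rises of 1.82 and 1.23. Kif7, a Hedgehog regulator at the tip of the cilium, fell by 2.62 and 2.82, and Kif26b by 1.39 and 1.84. Kif26a rose again, by 2.04 and 2.13 on its brighter probe only. Kif9, a ciliary kinesin, was not well above background on any EDL array and was at least 3.39-fold lower there than in myotubes (adjusted p = 0.0144), a call lost without EDL replicate 3 (-2.48) or replicate 3 of all groups (-2.50); in soleus it spread over 6.80, 2.34 and 3.72 and was not called.

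**Figure D3:**
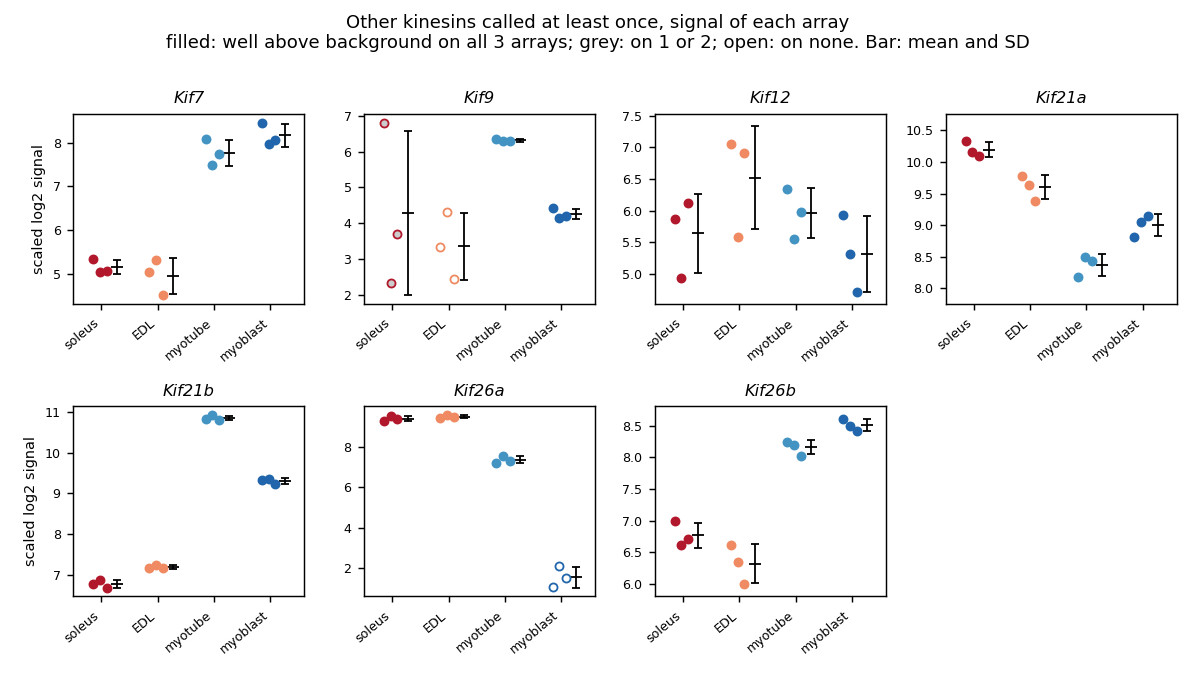
Scaled log2 signal of the 7 other kinesins called in at least 1 comparison, on each of the 12 arrays, with group means and SD; each panel has its own y axis. Kif21b stands highest in myotubes and lowest in both muscles, and the Kif26a probe shown is open, not well above background, only in myoblasts.

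Of 17 cargo partners, 5 were higher (29.4%) and 5 lower (29.4%) in soleus, beside 25.8% and 19.5% of all genes. In EDL 5 were higher (29.4%) and 3 lower (17.6%), beside 27.9% and 19.8% of all genes, so the share of cargo partners called was near that of all genes. The mitochondrial adaptors Trak1, Trak2 and Rhot2 were higher in soleus by 1.51, 2.46 and 1.84, and in EDL by 1.23, 1.45 and 2.31. Map7, which recruits conventional kinesin to microtubules, differed most (4.27 in soleus and 4.42 in EDL), with only 1 myotube array well above background. Rhot1, a relative of Rhot2, differed least (-0.03 and -0.09). The light chain Klc1 was lower in both (-3.80 in soleus and -3.22 in EDL). Among 14 other motors, 1 rose (7.14%) and 5 fell (35.7%) in soleus, and 1 rose and 6 fell (42.9%) in EDL. Dync1i1 differed most (-5.93 and -5.51), and Dynll2 was the one that rose (2.08 and 2.05).

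Muscle tissue holds cells that cultures lack, and their markers moved with these results. All 6 endothelial markers were higher in both muscles than in myotubes, with summed signals of 38200 to 41700 in soleus, 35500 to 36200 in EDL and 61 to 80.4 in myotubes, where 4 of the 6 were well above background on no array. Macrophage and leukocyte markers were higher for 5 of 6 in each muscle and summed to 14200 to 14800 in soleus, 13000 to 13700 in EDL and 156 to 164 in myotubes. Fibroblast markers (5 of 5) summed to 94200 to 99600 in soleus, 128000 to 155000 in EDL and 5040 to 6310 in myotubes. Their part in the results was not tested.

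Markers of fat, nerve sheath and vessel wall were higher in muscle as well. Adipocyte markers (4 of 4 higher) summed to 113000 to 130000 in soleus, 79200 to 84600 in EDL and 26 to 186 in myotubes. Schwann cell markers (5 of 5) summed to 9870 to 10300 in soleus, 4630 to 4880 in EDL and 208 to 298 in myotubes, and smooth muscle and pericyte markers (4 of 4) to 250000 to 267000 in soleus, 295000 to 334000 in EDL and 90600 to 97900 in myotubes. Neuronal markers were lower in muscle than in myotubes, where 4 of 5 fell in each muscle. The 5 summed to 293 to 394 in soleus, 269 to 370 in EDL, 2530 to 2760 in myotubes and 19700 to 22900 in myoblasts. Since the C2C12 cultures are 1 muscle line, these sums do not count neurons. Snap25, a synaptic marker, was well above background on none of the 12 arrays. The part of these cells in the results was not tested.

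With spike-in scaling the differences from myotubes shifted by -1.21 in soleus and -1.01 in EDL. The calls were then 1 higher and 22 lower in soleus, where 11.8% of all genes were higher and 48.9% lower, and 2 higher and 18 lower in EDL, where 13.5% were higher and 41.8% lower. Kif1c was still called in both, Kif16b (0.80 in soleus and 0.56 in EDL) and Kif21a (0.61 and 0.22) were not, and neither were Kif13a (0.30) and Kif26a (0.83) in soleus or Kif1b (0.04) in EDL. Kif18a in soleus was at -0.17. Quantile normalization gave 5 higher and 14 lower in soleus. With normexp, 3 were higher and 5 lower in soleus, and 3 higher and 6 lower in EDL, and Kif11 (0.37) and Kif14 (0.22) in EDL and Kif14 (1.15), Kif2c (1.33) and Kif4 (0.45) in soleus changed sign. Further calls lost with normexp were Kif4 (-0.31), Kif3b (-0.60), Kif26b (-0.88), Kif7 (-1.05), Kif13b (-0.10), Kif9 (-0.25), Kif1b (0.93) and Kif26a (1.67) in EDL. In soleus they were Kif7 (-0.31), Kif26b (-0.18), Kif13a (1.17), Kif18a (1.33) and Kif26a (1.68), while Kif5b (-1.32) came to be called.

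**Figure D4:**
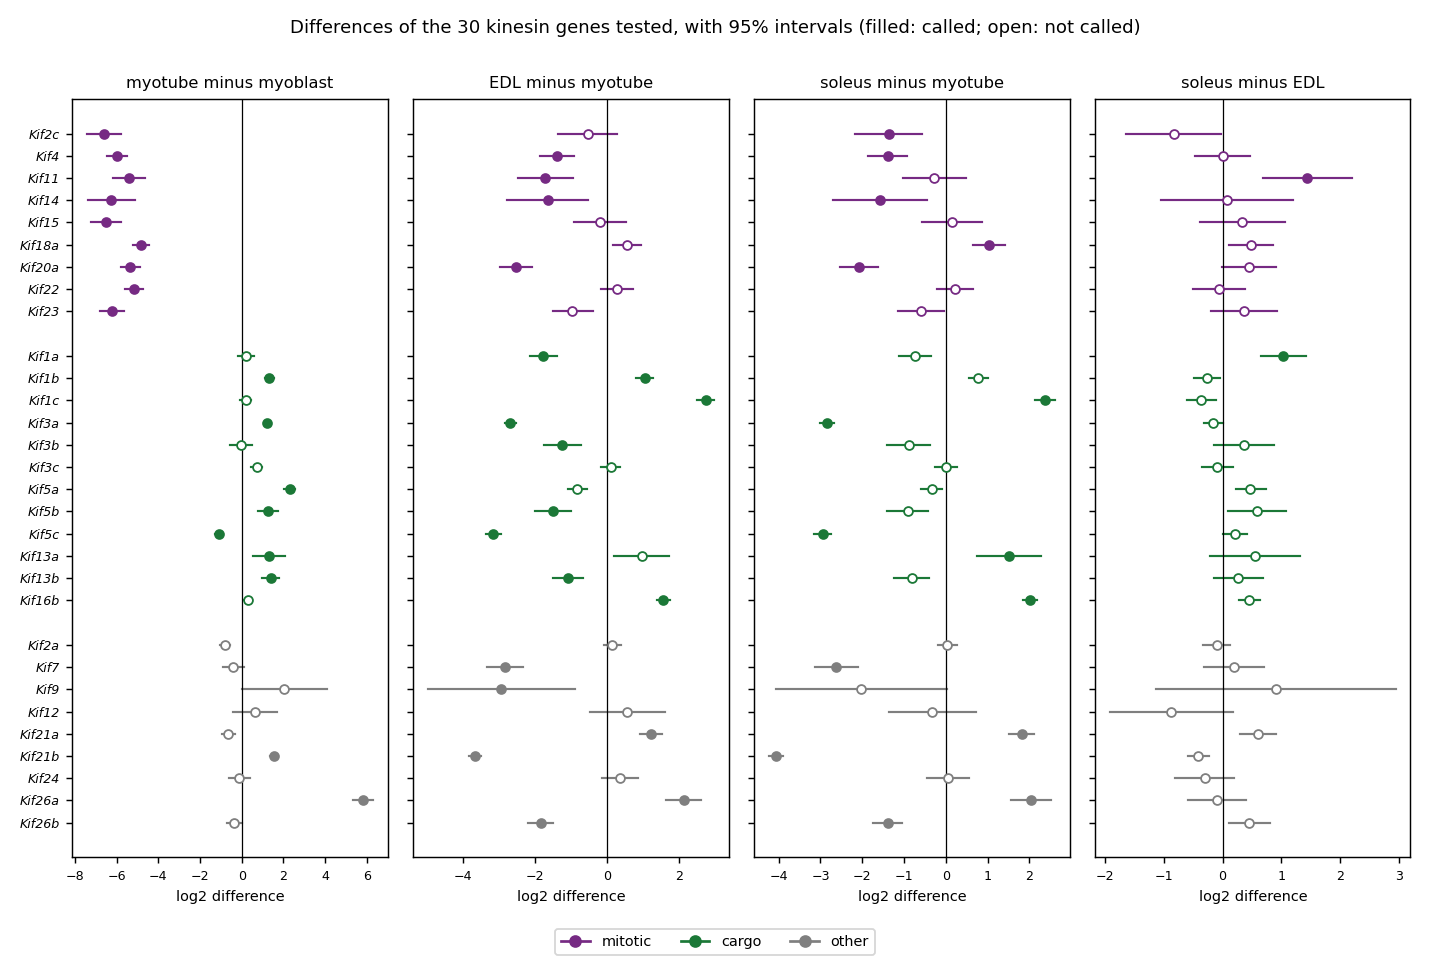
Log2 differences of the 30 kinesin genes tested in 4 comparisons, with 95% intervals from limma; filled points are called, open ones are not, and each panel has its own x axis. The mitotic group lies between -4.85 and -6.62 in myotubes against myoblasts, and cargo genes lie on both sides of 0 in muscle against myotubes.

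The muscles were compared with each other because they differ in fibre type. Only 2 kinesins were called, both higher in soleus and 0 lower, where 5.03% of all genes were higher and 4.74% lower. Kif1a was at 9.81, 10.14 and 10.16 in soleus and at 8.81, 9.12 and 9.07 in EDL, with no overlap, as for 44.7% of all genes (1.03 ± 0.17, adjusted p = 0.00104). A second Kif1a probe was well above background on no muscle array and gives no second measure. Kif11 was called at 1.44 ± 0.34 (adjusted p = 0.00881), but none of the 6 muscle arrays was well above background with this probe, so it has no fold here. Its other probes were so on 0 or 1 array of each muscle and give no second measure.

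Below the difference of 1, further kinesins had an adjusted p under 0.05. They were Kif21a (0.60), Kif5a (0.47) and Kif16b (0.45), with more signal in soleus, and Kif1c (-0.36) and Kif21b (-0.41), with less. With no minimum difference the count was 5 higher and 2 lower. The Kif1a call was lost with spike-in scaling (0.83), with normexp (0.84), with the mean over probes (0.49), which takes in the dim second probe, and without soleus replicate 2 (0.98), soleus replicate 3 (0.97) or EDL replicate 1 (0.94). The Kif11 call was lost with normexp (0.90), with the mean over probes (0.42), in the authors' deposited values (1.08), with spike-in scaling (1.24), after quantile normalization (1.34), in the fit of only these muscles (1.44) and without replicate 3 of all groups (1.28).

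Of 17 cargo partners, 1 was higher in soleus than in EDL (5.88%), Trak2 (1.01), and 0 were lower. Of 14 mitotic partners, 1 was higher in soleus (7.14%) and 2 were lower (14.3%). Over all genes tested 5.03% were higher and 4.74% lower. Among mitotic partners Aurka differed most (-3.65), with 9.05 ± 0.16 in soleus and 12.70 ± 0.07 in EDL (SD, n = 3 each). Tpx2, which activates Aurka on the spindle, was lower in soleus by 2.47 and Cit was higher by 1.06, while Incenp, a chromosomal passenger, differed least (-0.07). Of the adipocyte markers 3 of 4 and of the Schwann cell markers 1 of 5 were higher in soleus, and their part in these calls was not tested.

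Kif1b, a carrier of mitochondria and vesicles, has probes for a shorter and a longer transcript, and these parted between the muscles. This comparison was chosen after the values were seen and is given without a test of its own. The probes of the shorter transcript lie at chr4:148080007-148080066 and chr4:148081432-148081491, and those of the longer at chr4:148020891-148020950 and chr4:148021890-148021949 (build mm8, minus strand, 3′ to the first pair). Soleus minus EDL was 0.63 and 0.75 for the first pair and -0.27 and -0.16 for the second. Soleus minus myotube was 2.56 and 2.36 for the first pair and 0.78 and 1.17 for the second. The log2 ratio of the first pair to the second was 1.81, 1.82 and 2.01 on the soleus arrays and 0.77, 1.32 and 0.83 on the EDL arrays, without overlap. Its mean differed by 0.90 between soleus and EDL and by 0.26 between myotubes and myoblasts, where the arrays overlapped.

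**Figure D5:**
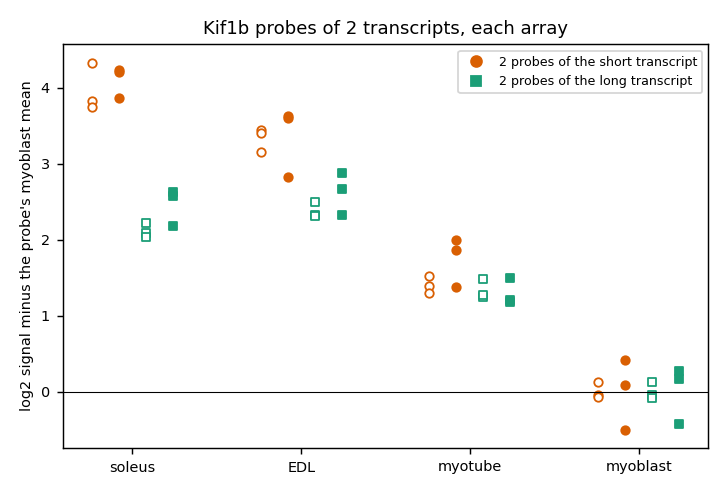
Log2 signal of 4 Kif1b probes on each of the 12 arrays, minus the mean of the same probe over the 3 myoblast arrays; circles are the 2 probes of the shorter transcript and squares those of the longer, with open and filled marks for the members of a pair. The circles stand higher in soleus than in EDL, with every soleus circle above every EDL circle, while the squares of the muscles overlap.

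Set against myoblasts, the muscles kept the mitotic loss and showed the net change of the cargo kinesins. All 9 mitotic kinesins were lower in both muscles. With the 4 that are below background in muscle set at their bounds, the median differences were -6.00 in soleus and -5.71 in EDL. In soleus 7 kinesins were higher and 14 lower, where 30.8% of all genes were higher and 24.7% lower. In EDL 7 were higher and 16 lower, where 33% were higher and 24.8% lower. Spike-in scaling gave 3 higher and 20 lower in soleus, with 14.4% of all genes higher and 55.2% lower, and 3 higher and 21 lower in EDL, with 15.8% and 49.3%. These comparisons share the muscle arrays with those above and the myoblast arrays with the first.

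Kif14 was at least 84.4-fold lower in soleus and at least 69.3-fold lower in EDL than in myoblasts. Kif2c was at least 63.9-fold and 52.4-fold lower, Kif11 on its brightest probe at least 42.4-fold and 38.6-fold, and Kif15 at least 29.8-fold and 24.5-fold. With normexp the mitotic differences shrank to between -1.66 and -6.31 in soleus and between -2.51 and -7.05 in EDL, and Kif15 in soleus was no longer called (adjusted p = 0.0948). Among those measured in muscle, Kif20a was 173-fold lower in soleus and 236-fold lower in EDL. Kif18a was the least changed, 14.1-fold and 19.6-fold lower.

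In both muscles 5 cargo kinesins ended above myoblasts. They were Kif1c (2.57 in soleus and 2.92 in EDL), Kif13a (2.83 and 2.28), Kif16b (2.32 and 1.87), Kif1b (2.11 and 2.38) and Kif5a (1.96 and 1.49). Spike-in scaling left Kif5a (0.40 in soleus and 0.13 in EDL) and Kif16b (0.76 and 0.51) under the minimum difference. The same held for Kif1b in soleus (0.55) and Kif13a in EDL (0.92). With normexp, Kif5a (0.85 and 0.22) was under it as well. Kif5c ended lowest, by 4.05 and 4.25, and Kif3a was lower by 1.60 and 1.45. Kif1a (-0.52 in soleus and -1.56 in EDL) and Kif3b (-0.91 and -1.27) were called in EDL and not in soleus on these probes. Their second probes passed the thresholds in both muscles: Kif3b differed by -1.72 in soleus and -1.93 in EDL, and Kif1a, below background in muscle, was at least 2.08-fold and 1.82-fold lower (adjusted p = 0.000402 and 0.000453). Kif5b, which rose in myotubes, was not called in either muscle (0.34 in soleus and -0.25 in EDL).

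Among the other kinesins, Kif26a was at least 86.9-fold higher in soleus and 93.1-fold higher in EDL on its brighter probe, and its second probe was not called. Kif21a was higher in soleus (1.19), and Kif12, linked to cystic kidney disease in mice, in EDL (1.19 ± 0.47, adjusted p = 0.0376) with arrays that overlapped. The Kif12 call was lost without EDL replicate 1 (0.92) or 3 (0.99), myoblast replicate 2 (1.19) or 3 (0.89), or replicate 1 (1.23) or 3 (0.69) of all groups. Under spike-in scaling Kif21a in soleus was at -0.37 and Kif12 in EDL at -0.17. Kif7 (-3.02 and -3.22) and Kif26b (-1.74 and -2.19), with 1 probe each by the name rule, were lower in both muscles. Kif21b (-2.52 and -2.12) was lower in both on its brightest probe. With normexp, Kif7 (-1.03), Kif26b (-0.79), Kif21a (0.81) and Kif26a (2.19) were no longer called in soleus, and Kif12 in EDL was at -0.13. A second Kif21b probe, well above background on 1 soleus and 2 EDL arrays, differed by -1.30 in soleus and only -0.11 in EDL. Kif2a and Kif24 were well above background in all groups and not called on their brightest probes. A second probe of each, named after its values were seen, was lower than in myoblasts. That of Kif2a, well above background on all 12 arrays, differed by -2.16 in soleus, -1.54 in EDL and -1.30 in myotubes (adjusted p = 1.22e-06, 1.94e-05 and 0.000112). That of Kif24 differed by -2.88 in soleus and -2.30 in EDL, with 1 array of each muscle well above background. No array was well above background for Kif2b, and for Kif27 only 1 myotube array with one probe and 1 EDL array with another, and neither gene was tested.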

How the data were processed

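Each array was scanned in 1 colour, and per the file headers Agilent Feature Extraction 10.5.1.1 gave a background-subtracted intensity and detection flags for each spot. The authors' deposited table of intensities, turned into log2 values here, was an alternative. How it was normalized is not given in the sources used here. Control and outlier spots were left out, spots of a probe were averaged, and log2 intensities were scaled to a common 75th percentile, with 9.65 added to all. A probe was kept (28607 were) if some group had it well above background on each of its 3 arrays, giving 18863 genes tested, among them 30 kinesins. limma 3.58.1 (R 4.3.3) fitted 4 group means over 12 arrays, two-sided, with Benjamini-Hochberg adjustment. Deviations of arrays with the same replicate number, which is the slide, correlated at 0.225 to 0.66 (others -0.494 to 0.2), so the numbers pair the arrays. The fit was tested on simulated data. The number of arrays limits the precision.

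Members and lists were chosen with earlier results of these data known. All mitotic and cargo kinesins could be named, other kinesins where called, and of each partner list the genes with the largest and smallest difference; further partners, given where few were called, were named after their values were seen. Gene names are those of the array design, updated by accession where RefSeq held it. Sequences are from RefSeq (GRCm38.p6).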

Additional observations from a re-analysis of the deposited data

Results flagged for a closer look

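The effects of soleus and EDL against myotubes differed from each other for 2 kinesins by limma's test of the difference itself. The myotube arrays cancel in it, so it is the soleus minus EDL comparison given above and adds no further result. Both calls were lost under the settings named there. Kif11 differed by 1.44 (adjusted p = 0.00881), with every soleus array above every EDL array and none of the 6 arrays well above background with the probe compared; another Kif11 probe was so on 1 array of each muscle. Kif1a differed by 1.03 (adjusted p = 0.00104), with 3 of 3 soleus arrays above all EDL arrays on its brighter probe. Groups of 3 were not examined for single outlying arrays.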

How the results depend on the processing

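All 9 mitotic kinesins were called lower in soleus, EDL and myotubes than in myoblasts under quantile and spike-in scaling and with any array left out. With normexp Kif15 in soleus was the exception. The authors' deposited values, where Kif15 and Kif2c were not tested, gave 7 calls in each comparison. The filter on all 12 arrays, which tests fewer genes, gave 4. The replicate block changed no call of a kinesin, and within each slide, 1 of which was scanned on another day, no called difference changed sign (there is 1 array a group and no test). Counts were the kinesin, mitotic, cargo or other genes called in both directions, and the cause of the changes below was not tested unless fewer genes were tested.

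With quantile normalization, the mitotic count was 7 in EDL minus myotube, the cargo count 8 in soleus minus myotube, and soleus minus EDL had 1 kinesin and 0 mitotic calls. With spike-in scaling, the cargo count was 2 in myotube minus myoblast, the mitotic count 7 in EDL minus myotube, and soleus minus myotube had 23 kinesin and 9 cargo calls; soleus minus EDL had 0 kinesin, 0 mitotic and 0 cargo calls. Sign changes there were Kif15 (-1.07), Kif18a (-0.17), Kif24 (-1.16), Kif2a (-1.16) and Kif3c (-1.20) in soleus minus myotube, Kif12 (-0.17), Kif13b (-1.06) and Kif24 (-1.12) in EDL minus myoblast, and Kif12 (-1.25), Kif21a (-0.37) and Kif5b (-1.22) in soleus minus myoblast.

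With normexp, myotube minus myoblast had 3 cargo and 1 other calls, EDL minus myotube 9 kinesin, 1 mitotic and 2 other calls, soleus minus myotube 8 kinesin, 1 mitotic and 2 other calls, soleus minus EDL 0 kinesin, 0 mitotic and 0 cargo calls, and soleus minus myoblast 1 other call. Sign changes were Kif13b (-0.49) in myotube minus myoblast, Kif11 (0.37) and Kif14 (0.22) in EDL minus myotube, while Kif14 (1.15), Kif2c (1.33) and Kif4 (0.45) in soleus minus myotube, and Kif12 (-0.13) in EDL minus myoblast.

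The authors' deposited values gave 8 cargo calls in soleus minus myotube, and 1 kinesin and 0 mitotic calls in soleus minus EDL. The filter on all 12 arrays tested fewer genes and gave 1 other call in myotube minus myoblast, 2 mitotic calls in EDL minus myotube, then 3 in soleus minus myotube, and 1 kinesin and 0 mitotic calls in soleus minus EDL. The mean over probes gave 9 cargo calls in soleus minus myotube and 0 kinesin, 0 mitotic and 0 cargo calls in soleus minus EDL, and changed the sign of Kif11 (0.13) in EDL minus myotube, that of Kif24 (-1.09) in soleus minus myotube, and Kif13b (-1.10) and Kif24 (-1.03) in EDL minus myoblast. With no minimum difference there were 4 other calls in myotube minus myoblast, 11 cargo calls for soleus against myotube and 11 against myoblast, and 7 kinesin, 4 cargo and 2 other calls in soleus minus EDL. Fitting only the muscles gave 1 kinesin and 0 mitotic calls between them. Leaving out arrays moved only soleus minus EDL counts by over 1.5 times, to 1 to 3 kinesin, 0 to 2 mitotic, 0 to 1 cargo and 0 to 1 other calls.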
